A study of Mus musculus with 12 samples.

Results

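The AP-1 and immediate early factors described here are 10 genes, *Fos*, *Fosb*, *Fosl1*, *Fosl2*, *Jun*, *Junb*, *Jund*, *Atf3*, *Maff* and *Egr1*. They were chosen by symbol from a table of raw counts that covers 39179 genes, and their levels were followed across 3 kinds of culture of pancreatic stellate cells (PSCs), the fibroblast-like cells of the pancreas. PSCs carrying mCherry were kept for 72 h alone (mono-PSCs), with pancreatic cancer cells (PCCs) that carried EGFP (2W-PSCs), or with those PCCs and macrophages (MØs) that carried TagBFP (3W-PSCs). Each culture gave 4 libraries, 12 in all, and the comparisons ask how the presence of PCCs, and of MØs beside them, changed the RNA of the PSCs.
The PSCs of all groups shared the C57BL/6 strain, the mCherry transgene, a medium low in dialysed serum, detachment with Accutase and a sort on mCherry before the RNA was extracted. The study lists the PSCs as a clone of an SV40-immortalised line, the PCCs as an iKras line and the MØs as a line from a cell bank, so the cultures model one stellate cell clone and not the mixed fibroblasts of a tumour. The libraries came from a 3′ kit that yields about 1 fragment near the end of each transcript, so that levels of different genes can be set side by side without a correction for length. Levels are given as CPM, counts scaled to a common library size, with TMM scaling, a correction of that size for differences in composition.

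Members of the Fos and Jun families are leucine zipper proteins that bind DNA in pairs. Fos proteins need a Jun partner, whereas Jun proteins can also pair with each other, and the pairs recognise the AP-1 site and related elements. Many of these genes are immediate early genes, transcribed within minutes of a growth factor, cytokine or stress signal without new protein synthesis, and most of their transcripts are short-lived. In fibroblasts, AP-1 is best known for driving matrix metalloproteinases, cytokines and genes of growth and migration, and which family members form the pairs changes what they activate.

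Library totals ranged from 4561817 to 8093368 counts, of which the 10 genes took between 0.0750% and 0.228%. All 10 passed the filter on low counts in every comparison, with at least 19 counts in each library. Nothing in the labels says how the replicates of a culture were made, so p-values measure the spread between these libraries only. Replicate 2 of 2W-PSCs had the lowest total and stood apart from the other 2W-PSCs in several of the 10 genes, which is given beside the results it touches. Summed over 14 fibroblast markers, mono-PSCs had 12974 to 14694 CPM, 2W-PSCs 15391 to 22673 CPM and 3W-PSCs 8383 to 10240 CPM, although *Lum* had at most 7 counts in any library. The single markers did not all follow the sum. Of 13 tested in edgeR, 8 were called lower in 3W-PSCs than in 2W-PSCs and 1, *Pdgfra*, higher (4.95% and 5.73% of all genes). Against mono-PSCs 4 were lower, 2 higher (*Pdgfra* and *Fn1*) and 7 not called, where 13% of all genes were lower and 13.4% higher. Over 15 macrophage markers, mono-PSCs had 2.43 to 8.52 CPM, 2W-PSCs 4.15 to 11.8 CPM and 3W-PSCs 13.6 to 56.6 CPM, with the highest value in replicate 4 of 3W-PSCs. In each comparison with 3W-PSCs 4 macrophage markers passed the filter. *Cd53* was called against mono-PSCs (log2 fold change 3.17, adjusted p = 0.000310 in edgeR) and against 2W-PSCs (2.45, adjusted p = 0.00355), and *Csf1r*, the receptor for CSF1, against mono-PSCs (adjusted p = 0.000861). Against 2W-PSCs *Csf1r* was not called (log2 fold change 0.074, adjusted p = 0.965 in edgeR). *Csf1r* had 0 to 2 counts in each mono-PSC library, 1, 28, 8 and 7 counts in 2W-PSCs, and between 15 and 27 counts where MØs were present. At least 10 counts in every mono-PSC or every 2W-PSC library were found for 0 of the 15 markers. The called ones thus passed the filter through their counts in 3W-PSCs, which set their direction. *Emr1* was at 0 in all libraries and *Ptprc* was at 0 in all mono-PSC and 2W-PSC libraries and at 0 to 20 counts in 3W-PSCs. Over 14 epithelial markers, mono-PSCs had 80.3 to 132 CPM, 2W-PSCs 162 to 253 CPM and 3W-PSCs 172 to 193 CPM, a sum in which *Sox9*, which was not called in any comparison, was the most abundant gene. Of 6 epithelial markers tested in 2W-PSCs against mono-PSCs, *Cdh1*, *Krt7*, *Krt8*, *Krt18* and *Krt19* were called, each higher, as were 7 of 8 in 3W-PSCs against mono-PSCs, while 0 of 8 were called between 3W-PSCs and 2W-PSCs in edgeR, 3 of them with an unadjusted p under 0.05. Only 1 of the 14 had at least 10 counts in every mono-PSC library. The markers called against mono-PSCs thus passed the filter through the libraries with PCCs, and their direction was set by the filter. The keratin gene *Krt18* had 0 or 1 count in each mono-PSC library, at least 130 in each library with PCCs alone and at least 120 in each with PCCs and MØs. *Epcam* stayed at 3 counts or fewer and *Cldn4* at 0. The part of RNA from MØs or PCCs in the results was not tested, and in sorted bulk RNA a changed share of cells cannot be told apart from a changed level per cell.

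Between 3W-PSCs and 2W-PSCs, 4 of the 10 genes were called at an adjusted p under 0.05 in edgeR's quasi-likelihood test. *Fosl1*, *Fosl2* and *Junb* were higher in 3W-PSCs and *Fos* was lower. For comparison, 10.7% of the 11513 genes tested were called, 5.73% higher and 4.95% lower. The 10 genes were chosen with earlier results of these data known, so their counts here and below are no independent support. The libraries of the 2 cultures did not overlap for 5 of the 10 genes, *Maff* being the fifth, 4 of them higher and 1 lower in 3W-PSCs, against 21.3% of all genes tested (11.6% higher and 9.72% lower). The median log2 fold change was 0.18 over the 10 genes and 0.0025 over all genes tested, since rises and falls stood side by side. The count of 4 called genes was 2 without replicate 1, 2 or 4 of 3W-PSCs or replicate 1 or 4 of 2W-PSCs, where *Fosl1* and *Fosl2* were the ones called.
Between 3W-PSCs and mono-PSCs, 7 of the 10 genes were called. *Fosl1*, *Fosl2*, *Junb* and *Maff* were higher in 3W-PSCs, and *Fos*, *Jund* and *Atf3* were lower. Among the 11551 genes tested in this comparison, 26.4% were called, 13.4% higher and 13% lower. The libraries did not overlap for 5 of the 10 genes, 4 higher and 1 lower, against 26% of all genes (13.9% higher and 12.1% lower).
Between 2W-PSCs and mono-PSCs, 0 of the 10 genes were called in edgeR, 0 had an unadjusted p under 0.05, and DESeq2 called 0 as well. Their log2 fold changes ran from -0.95 for *Atf3* to 0.47 for *Maff*. Among all 11199 genes tested, 0.991% were called (0.839% higher and 0.152% lower), 111 genes in all and 61 to 233 with one library left out, and the libraries of 5.75% did not overlap (3.23% higher and 2.52% lower), against 0 of the 10 genes. The 3 comparisons share libraries pairwise, so their values are set side by side and are not independent of each other.

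**Figure D1:**
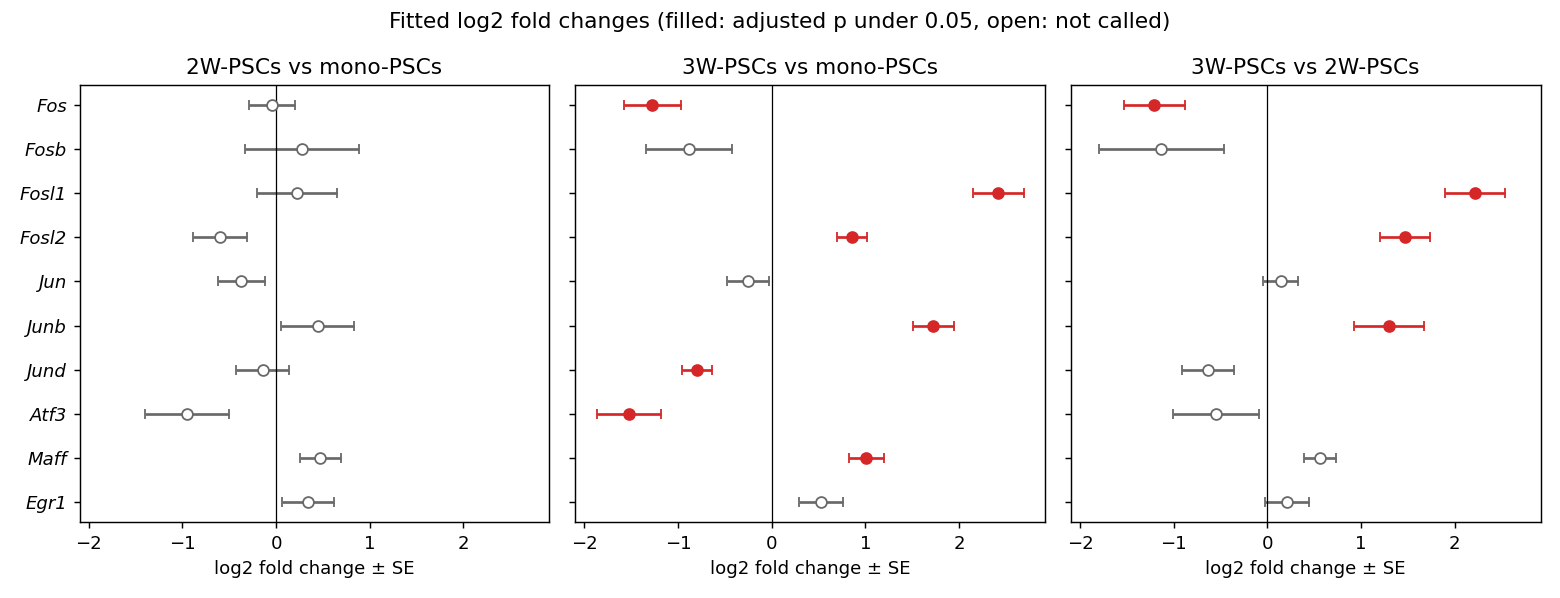
Fitted log2 fold changes of the 10 genes (horizontal axis, with the standard error as whiskers) in the 3 comparisons, filled where the adjusted p was under 0.05 in edgeR. The open symbols of 2W-PSCs against mono-PSCs lie between -0.95 and 0.47, while *Fosl1* lies at 2.42 and 2.22 in the panels with 3W-PSCs.

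Of the Fos family, *Fos* (ENSMUSG00000021250), the founding member and a potent activator, lies at 85473890 to 85477273 on chromosome 12 of GRCm38, plus strand. Its level in replicates 1 to 4 was 96.9, 84.6, 64.3 and 142 CPM in mono-PSCs, 94.7, 114, 79.4 and 83.2 CPM in 2W-PSCs, and 32.5, 19.0, 69.8 and 39.8 CPM in 3W-PSCs. Every 3W-PSC library lay below every 2W-PSC library, whereas replicate 3 of 3W-PSCs lay above replicate 3 of mono-PSCs. The mean for 3W-PSCs was 40.3 ± 21.5 CPM (SD, n = 4), against 92.8 ± 15.5 CPM for 2W-PSCs and 96.9 ± 32.9 CPM for mono-PSCs. The log2 fold change was -1.20 against 2W-PSCs (standard error 0.326, adjusted p = 0.0386 in edgeR) and -1.28 against mono-PSCs (standard error 0.305, adjusted p = 0.00486). The call against 2W-PSCs held in 9 of the 15 alternatives, among them those without replicate 3 of 3W-PSCs or without replicate 2 or 3 of 2W-PSCs. The adjusted p was 0.118, 0.0863 and 0.101 without replicate 1, 2 or 4 of 3W-PSCs, and 0.0724 and 0.0807 without replicate 1 or 4 of 2W-PSCs (edgeR). The call against mono-PSCs held in all 15 alternatives.
*Fosl1* (ENSMUSG00000024912), which encodes FRA-1, a Fos protein without the strong activation domain of c-Fos and a marker of sustained ERK signalling, moved the other way. It lies at 5447547 to 5455946 on chromosome 19, plus strand. The level was 14.3, 4.76, 15.7 and 12.7 CPM in mono-PSCs, 18.5, 5.16, 16.5 and 14.2 CPM in 2W-PSCs, and 82.5, 62.6, 58.1 and 53.6 CPM in 3W-PSCs. All 3W-PSC libraries were above all others, and replicate 2 was the lowest of both mono-PSCs and 2W-PSCs. In 3W-PSCs *Fosl1* was 4.65-fold higher than in 2W-PSCs (log2 fold change 2.22, standard error 0.323, adjusted p = 0.00183 in edgeR) and 5.35-fold higher than in mono-PSCs (2.42, standard error 0.270, adjusted p = 3.81e-06). Between 2W-PSCs and mono-PSCs its log2 fold change was 0.22 (standard error 0.425, adjusted p = 0.999). *Fosl1* shares 2326 exonic bases with *Ccdc85b* on the opposite strand, among them the whole of its last 500. *Ccdc85b* had at most 8 counts in any library. The strand setting of the counting is not given, and how the shared bases were counted was not tested. The level of *Fosl1* beside other genes, and its share of the Fos family, are therefore less certain.
*Fosl2* (ENSMUSG00000029135), which encodes FRA-2, the relative of FRA-1, lies at 32135801 to 32157842 on chromosome 5, plus strand. It had 60.2, 38.3, 51.8 and 53.9 CPM in mono-PSCs, 44.3, 15.5, 39.2 and 33.7 CPM in 2W-PSCs, and 93.0, 96.1, 97.3 and 85.2 CPM in 3W-PSCs. The 4 libraries of 3W-PSCs lay close together and above all others, and those of mono-PSCs and 2W-PSCs overlapped. The log2 fold change was 1.48 against 2W-PSCs (standard error 0.267, adjusted p = 0.00610 in edgeR) and 0.86 against mono-PSCs (standard error 0.163, adjusted p = 0.000861). *Fosl1* and *Fosl2* were called in both comparisons with 3W-PSCs in all 15 alternatives, among them the one without replicate 2 of 2W-PSCs, where the log2 fold changes against 2W-PSCs were 1.96 and 1.24. Both genes had their lowest level of 3W-PSCs in replicate 4. Without that library the log2 fold changes against 2W-PSCs were 2.30 (adjusted p = 0.00602 in edgeR) and 1.52 (adjusted p = 0.0185).
*Fosb* (ENSMUSG00000003545), on chromosome 7, is an activator like *Fos* and is induced by similar signals. The level was 20.2, 5.15, 26.6 and 16.8 CPM in mono-PSCs, 29.1, 10.8, 38.4 and 3.35 CPM in 2W-PSCs, and 10.6, 7.31, 17.2 and 2.46 CPM in 3W-PSCs. The 3 cultures overlapped, and the 2W-PSC libraries spanned an 11.5-fold range. The log2 fold changes were -1.13 against 2W-PSCs (standard error 0.668, adjusted p = 0.314 in edgeR) and -0.88 against mono-PSCs (standard error 0.459, adjusted p = 0.169). The latter was called without replicate 2 of mono-PSCs (-1.18, adjusted p = 0.0468).

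**Figure D2:**
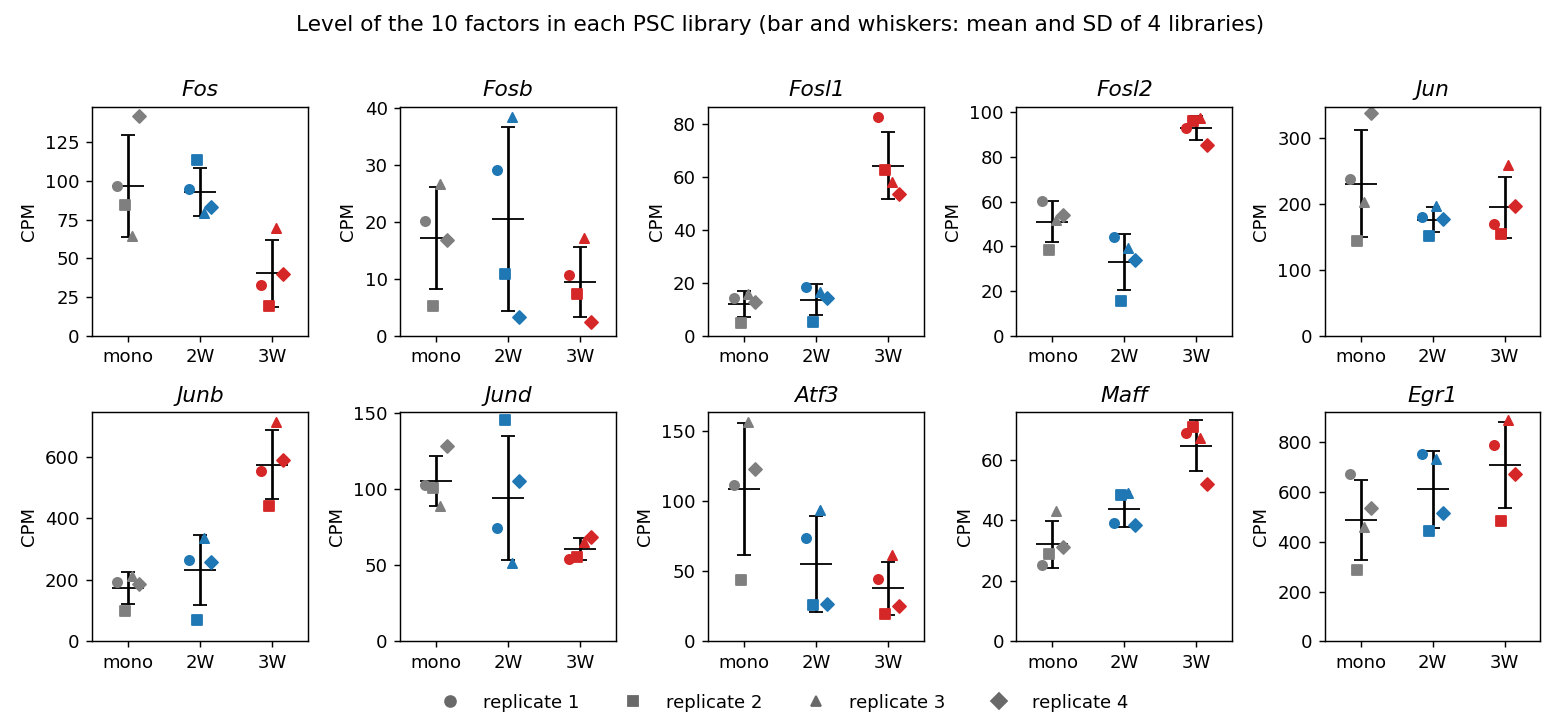
Level of each of the 10 genes in CPM (vertical axes, each starting at 0) in the 4 libraries of mono-PSCs, 2W-PSCs and 3W-PSCs, with the mean and SD as bar and whiskers and the replicate number as the symbol. The 3W-PSC symbols of *Fosl1*, *Fosl2*, *Junb* and *Maff* lie above all others, and those of *Jun* lie among the others. Those of *Egr1* overlap with the other cultures, with replicates 1 and 3 above them.

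Of the Jun family, *Jun* (ENSMUSG00000052684), which encodes c-Jun, the strongest activator of the family, lies at 95049034 to 95052222 on chromosome 4, minus strand. Its level was 239, 144, 203 and 338 CPM in mono-PSCs, 180.0, 152, 197 and 177 CPM in 2W-PSCs, and 170, 155, 259 and 197 CPM in 3W-PSCs. The cultures overlapped, and replicate 2 was the lowest library in each. The log2 fold change was 0.14 in 3W-PSCs against 2W-PSCs (standard error 0.187, adjusted p = 0.679 in edgeR), -0.25 against mono-PSCs (standard error 0.224, adjusted p = 0.435), and -0.37 in 2W-PSCs against mono-PSCs (standard error 0.248, adjusted p = 0.920).
*Junb* (ENSMUSG00000052837), a weaker activator that can also hold back c-Jun and that is an early target of cytokine receptors, lies at 84974484 to 84978718 on chromosome 8, minus strand. It had 194, 97.1, 213 and 186 CPM in mono-PSCs, 264, 70.5, 337 and 257 CPM in 2W-PSCs, and 555, 440, 712 and 591 CPM in 3W-PSCs. Every 3W-PSC library was above every other library, and replicate 2 was the lowest in each culture. In 3W-PSCs *Junb* was 3.31-fold higher than in mono-PSCs (log2 fold change 1.73, standard error 0.220, adjusted p = 1.65e-05 in edgeR), a call that held in all 15 alternatives. Against 2W-PSCs it was 2.47-fold higher (1.30, standard error 0.374, adjusted p = 0.0475). That call was close to the threshold. Without replicates 1 to 4 of 3W-PSCs in turn the adjusted p was 0.104, 0.0883, 0.124 and 0.108, and without replicate 1 or 4 of 2W-PSCs it was 0.0826 and 0.109 (edgeR). Without replicate 2 of 2W-PSCs, the library at 70.5 CPM, the log2 fold change was 1.0 with an adjusted p of 0.00105.
*Junb* and *Prdx2*, a peroxiredoxin gene on the opposite strand, share 692 exonic bases, 173 of them in the last 500 of *Junb*. The mean of *Prdx2* was 340 CPM for 2W-PSCs and 227 CPM for 3W-PSCs. Its log2 fold change of -0.59 (adjusted p = 0.0466 in edgeR) had the opposite direction to that of *Junb*. The strand setting of the counting is not given in the sources used here, and how the shared bases were counted was not tested.
*Jund* (ENSMUSG00000071076), the Jun protein that resting cells express steadily and that restrains growth, lies at 70698949 to 70700616 on chromosome 8, plus strand. The level was 103, 101, 88.9 and 129 CPM in mono-PSCs, 74.7, 146, 51.3 and 105 CPM in 2W-PSCs, and 53.9, 55.4, 65.5 and 68.5 CPM in 3W-PSCs. The 3W-PSC libraries were all below the mono-PSC libraries, while those of 2W-PSCs spread over both. In 3W-PSCs *Jund* was 1.74-fold lower than in mono-PSCs (log2 fold change -0.80, standard error 0.161, adjusted p = 0.00134 in edgeR). Against 2W-PSCs the log2 fold change was -0.63 (standard error 0.277, adjusted p = 0.174), and it was called only without replicate 3 of 2W-PSCs, the lowest of that culture (-0.84, adjusted p = 0.0389).

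The make-up of each family is given as shares of its summed counts. *Fos* made up 40.6% to 63.7% of the Fos family counts in mono-PSCs and 45.7% to 78.4% in 2W-PSCs, but 10.3% to 28.8% in 3W-PSCs. *Fosl1* made up 3.58% to 9.89% of these counts in mono-PSCs, 3.55% to 10.6% with PCCs and 24.0% to 37.7% with PCCs and MØs. *Fosl2* made up 23.9% to 32.7%, 10.6% to 25.1% and 40.1% to 51.9%. In 3W-PSCs the FRA genes thus held most of the Fos family counts in each library, while *Fos* was the most abundant of the 4 genes in every library of the other cultures.
In the Jun family, *Junb* held 67.6% to 71.3% of the counts in 3W-PSCs, against 28.4% to 42.2% in mono-PSCs and 19.1% to 57.6% in 2W-PSCs. In replicates 1, 3 and 4 of 2W-PSCs its share of 50.9%, 57.6% and 47.7% was above that of every mono-PSC library, and in replicate 2 it was below. The share of *Jun* was 40.2% to 51.8% for mono-PSCs, 32.8% to 41.3% with PCCs, and 21.8% to 25% with PCCs and MØs. *Jund* held 17.6% to 29.5%, 8.76% to 39.6% and 6.32% to 8.52%, with the widest spread in 2W-PSCs. The libraries of 3W-PSCs and mono-PSCs did not overlap for the share of any of the 3 Jun genes. Shares within a family are bound to each other, so that a larger share of *Junb* takes from the share of *Jun*, whose level did not pass the test.
Summed over the 4 Fos genes the mean was 177 ± 40.2 CPM for mono-PSCs, 160 ± 24.2 CPM for 2W-PSCs and 207 ± 29.1 CPM for 3W-PSCs (SD, n = 4), and the libraries overlapped. Summed over the 3 Jun genes it was 509 ± 128, 503 ± 94.0 and 830 ± 162 CPM in that order of cultures. The lowest 3W-PSC library stood at 650 CPM, just under the highest mono-PSC library at 653 CPM and above all 2W-PSC libraries. No test was made on these sums and shares.

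**Figure D3:**
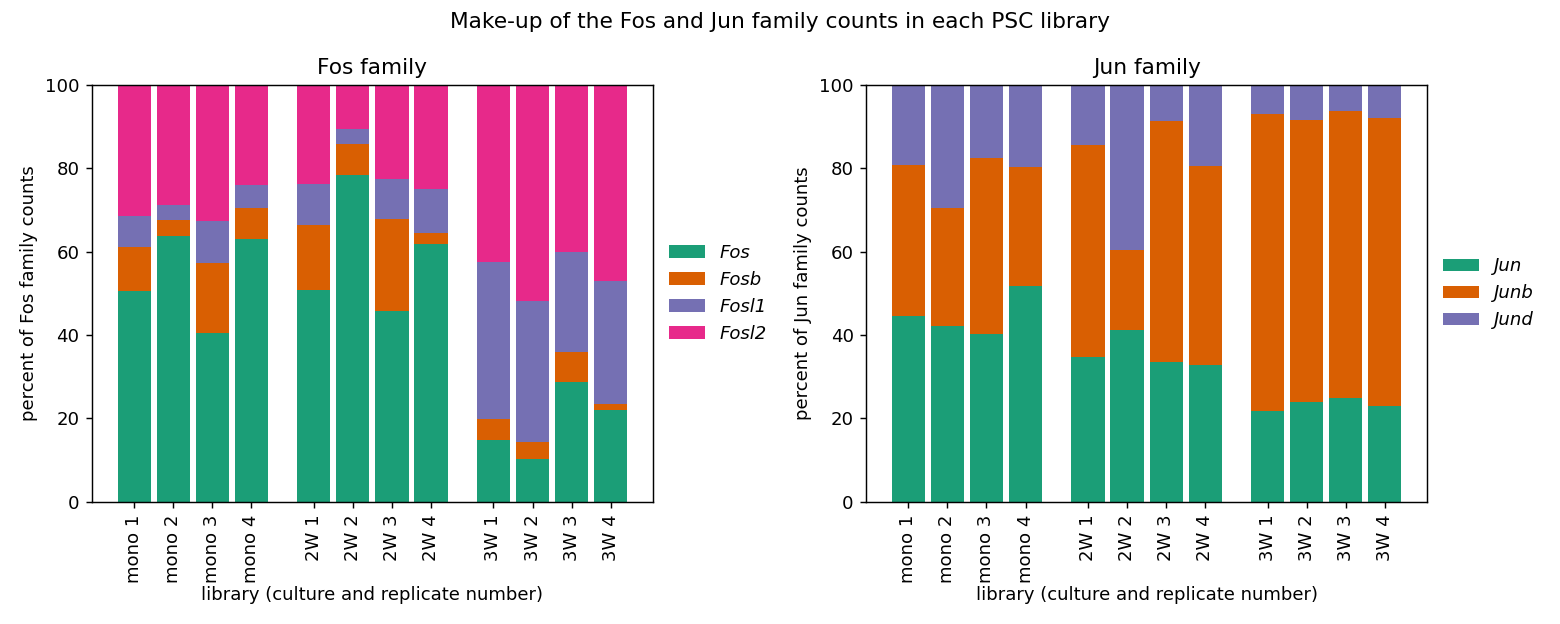
Percent of the summed counts of the Fos family (left) and the Jun family (right) taken by each gene in each of the 12 libraries, stacked to 100. *Fos* makes up 10.3% to 28.8% of the Fos family in 3W-PSCs and at least 40.6% in the other libraries, and *Junb* makes up at least 67.6% of the Jun family in 3W-PSCs.

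*Atf3*, *Maff* and *Egr1* stand outside both families. *Atf3* (ENSMUSG00000026628), a leucine zipper factor of the stress response that pairs with Jun proteins and often represses, lies at 191170296 to 191218039 on chromosome 1, minus strand. It had 111, 43.6, 156 and 122 CPM in mono-PSCs, 73.5, 25.8, 93.7 and 26.7 CPM in 2W-PSCs, and 44.5, 19.7, 61.4 and 25.4 CPM in 3W-PSCs. Within each culture replicate 3 was the highest and replicate 2 the lowest, and the cultures overlapped. In 3W-PSCs *Atf3* was 2.88-fold lower than in mono-PSCs (log2 fold change -1.53, standard error 0.343, adjusted p = 0.00311 in edgeR), a call that held in all 15 alternatives. In 2W-PSCs against mono-PSCs the log2 fold change was -0.95 (standard error 0.449, adjusted p = 0.699), and in 3W-PSCs against 2W-PSCs it was -0.55 (standard error 0.460, adjusted p = 0.492). 
*Maff* (ENSMUSG00000042622), a small Maf protein that lacks an activation domain and pairs with NRF2 and related factors, lies at 79346621 to 79359076 on chromosome 15, plus strand. The level was 25.2, 28.7, 43.0 and 31.1 CPM in mono-PSCs, 38.9, 48.4, 49.1 and 38.5 CPM in 2W-PSCs, and 68.7, 70.8, 67.2 and 52.1 CPM in 3W-PSCs. The 3W-PSC libraries were above all others, and those of 2W-PSCs and mono-PSCs overlapped only through replicate 3 of mono-PSCs. In 3W-PSCs *Maff* was 2.02-fold higher than in mono-PSCs (log2 fold change 1.01, standard error 0.185, adjusted p = 0.000610 in edgeR). Against 2W-PSCs the log2 fold change was 0.56 (standard error 0.173) with an adjusted p of 0.0608, above the threshold, while without replicate 2 of 2W-PSCs it was called (0.61, adjusted p = 0.0188), as it was in DESeq2 (adjusted p = 0.0474).
*Egr1* (ENSMUSG00000038418), on chromosome 18, encodes a zinc finger activator that the same serum and ERK signals induce. It had 674, 287, 460 and 536 CPM in mono-PSCs, 752, 444, 731 and 517 CPM in 2W-PSCs, and 788, 485, 890 and 673 CPM in 3W-PSCs. The cultures overlapped, and replicate 2 was the lowest in each. The log2 fold change was 0.53 in 3W-PSCs against mono-PSCs (standard error 0.232, adjusted p = 0.103 in edgeR), 0.34 in 2W-PSCs against mono-PSCs (standard error 0.277, adjusted p = 0.991) and 0.21 in 3W-PSCs against 2W-PSCs (standard error 0.235, adjusted p = 0.611). The first of these was called without replicate 1 of mono-PSCs (0.72, adjusted p = 0.0125).

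In order of mean level, *Egr1* stood first in all 3 cultures. In mono-PSCs *Jun* and *Junb* followed at 231 and 173 CPM, and *Fosl1* was last at 11.9 CPM. In 3W-PSCs *Junb* came second at 574 CPM and overlapped with *Egr1*, and a gap without overlap separated it from *Jun* at 195 CPM. *Fosl2* followed at 92.9 CPM, below every *Jun* value, and *Maff*, *Fosl1* and *Jund*, at 64.7, 64.2 and 60.8 CPM, did not differ beyond their spread. *Fos* came after them at 40.3 CPM, with *Atf3* at 37.8 CPM and *Fosb* last at 9.39 CPM.

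Promoter sequence was read from RefSeq (GRCm38.p6) to show the elements through which immediate early genes are known to answer signals. An entry was found for 8 of the 10 genes, not for *Fosl1* and *Egr1*, and 4 are printed, those of genes with a match whose window overlaps no annotated exon. The 200 bases before the start are printed 5′ to 3′ on the strand of the gene, with the matches named here in capitals and positions counted back from -1 at the base before the start. For *Fos* (chr12:85473690-85473889, plus strand) the capitals mark the cyclic AMP response element (CRE) core TGACG at -129 and -66 and a TATA box, TATAAA, at -33. For *Junb* (chr8:84978749-84978948, minus strand) they mark the CRE core at -106. For *Jun* (chr4:95052223-95052422, minus strand) they mark the variant AP-1 site TGACATCA at -45. For *Maff*, which has 3 starts in the table, the second is shown (chr15:79347320-79347519, plus strand), with a full CRE, TGACGTCA, at -29 and an EGR site, GCGTGGGCG, at -88.
Fos: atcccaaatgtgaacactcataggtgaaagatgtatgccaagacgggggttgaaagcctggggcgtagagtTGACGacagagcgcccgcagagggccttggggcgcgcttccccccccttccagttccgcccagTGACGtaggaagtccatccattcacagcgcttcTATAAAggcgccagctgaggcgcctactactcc
Junb: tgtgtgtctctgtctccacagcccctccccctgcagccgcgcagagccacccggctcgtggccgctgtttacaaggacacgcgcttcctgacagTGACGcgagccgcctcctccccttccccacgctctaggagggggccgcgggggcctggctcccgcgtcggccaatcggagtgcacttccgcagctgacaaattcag
Jun: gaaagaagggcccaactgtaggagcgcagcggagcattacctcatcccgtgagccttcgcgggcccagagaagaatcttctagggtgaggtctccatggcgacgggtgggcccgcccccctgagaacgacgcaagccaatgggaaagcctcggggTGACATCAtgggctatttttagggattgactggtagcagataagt
Maff: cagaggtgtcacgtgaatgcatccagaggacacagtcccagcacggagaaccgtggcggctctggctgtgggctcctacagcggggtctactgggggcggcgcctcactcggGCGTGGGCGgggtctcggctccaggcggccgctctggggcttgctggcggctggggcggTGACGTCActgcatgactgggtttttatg
The 250 bases were searched on both strands, except for TATAAA, which was searched on the strand of the gene only. The CRE core was found before 17.8% of 32851 starts in the table, and the full CRE, which contains it, before 1.55%. The variant AP-1 site stood before 2.93%, the EGR site before 0.536% and TATAAA before 7.59%. The consensus AP-1 site TGANTCA (6.75% of starts), the STAT element TTCNNNGAA (7.02%) and the CArG box of serum response factor (1.47%) had no match in these windows of the 8 genes, which says only that the letters are not in this window. Not every start in the table is the gene start given above. The *Jund* window (chr8:70697539-70697738) lies upstream of the gene start and does not reach it. Those of *Atf3* (chr1:191183334-191183533) and *Fosl2* (chr5:32136272-32136471), among others, lie inside the gene. The CRE core stood before *Fos*, *Fosb*, *Junb*, *Atf3* and *Maff*, and not before *Fosl2*, *Jun* or *Jund*. Of the genes with it, *Junb* and *Maff* rose and *Fos* and *Atf3* fell between mono-PSCs and 3W-PSCs, and *Fosb* was not called. Matches are descriptions of sequence, not shown to be bound here.

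Libraries of the same culture differed in these genes by unequal amounts. The SD of log2 CPM within cultures was 1.25 for *Fosb*, larger than for 98.4% of the 11776 genes kept over the 12 libraries, and 0.84 for *Atf3* (89.5%). It was 0.68 for *Junb* and 0.67 for *Fosl1* (82.0% and 81.0%), and 0.54 for *Fos* (70.6%). *Egr1* (0.43), *Fosl2* (0.42), *Jund* (0.41) and *Jun* (0.36) lay near the median gene at 0.39, and *Maff* was the steadiest at 0.25 (17.0%). *Fosb* and *Atf3* were highest in replicate 3 of every culture.

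**Figure D4:**
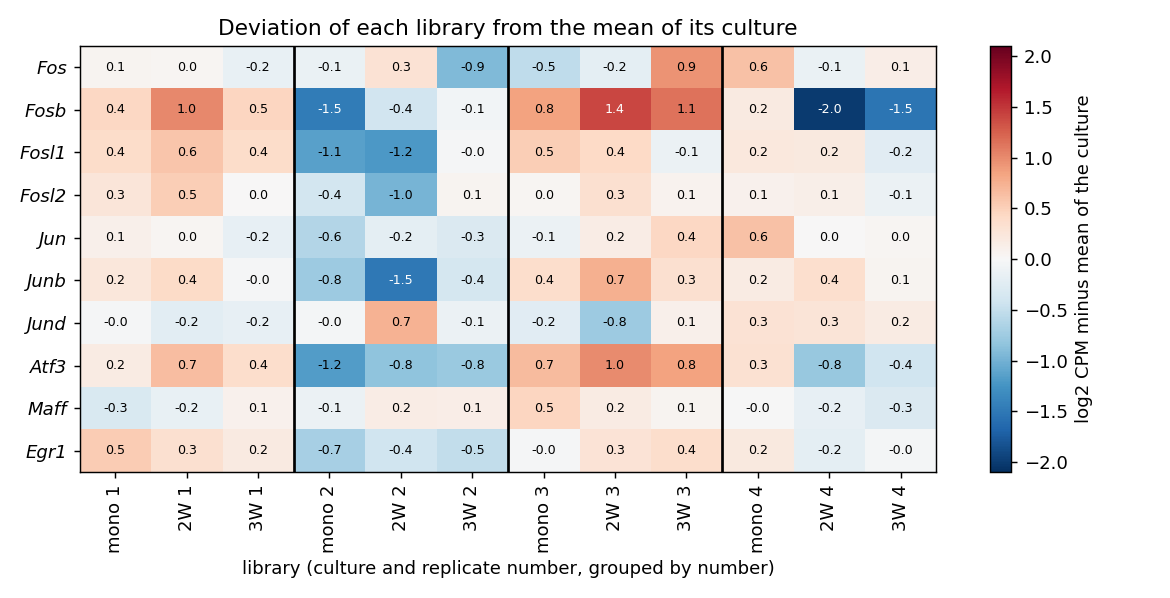
Deviation of each library from the mean of its own culture, in log2 CPM (colour and printed value), for the 10 genes in rows and the 12 libraries in columns grouped by replicate number. *Atf3*, *Egr1*, *Jun*, *Junb*, *Fosb* and *Fosl1* lie below 0 in replicate 2 of every culture, the last 2 only just so in 3W-PSCs, and *Fosb* spans the widest range.

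Genes that AP-1 is known to activate in other cells were taken as a list beside the 10 genes. Like the lists that follow, it was chosen with earlier results of these data known, so its counts are no independent support. Of 20 tested in 3W-PSCs against 2W-PSCs, 11 were called, each higher, against 10.7% of all genes tested (5.73% higher), and the median log2 fold change was 1.47. The largest was that of the chemokine gene *Ccl2*, whose mean was 26.6 ± 15.6 CPM for 2W-PSCs and 1204 ± 231 CPM for 3W-PSCs (SD, n = 4), with a log2 fold change of 5.49 (adjusted p = 5.81e-05 in edgeR). The collagenase gene *Mmp13* (5.0, adjusted p = 0.000840), the related *Mmp10* (4.01, adjusted p = 0.00170) and the chromatin protein gene *Hmga1* (3.88, adjusted p = 0.000473) came next. Against mono-PSCs, 17 of 20 were called in 3W-PSCs, each higher, with a median of 1.95, against 26.4% of all genes (13.4% higher). *Il6*, *Areg*, *Mmp10* and *Mmp13* passed the filter on low counts only in the comparisons with 3W-PSCs, through their counts there. Their direction was thus set by the filter. These genes are counted among the 17 and, except for *Areg*, among the 11 called against 2W-PSCs. *Mmp3*, also among the 17, passed against mono-PSCs only through the libraries with PCCs, so its direction there was set likewise. The stromelysin genes *Mmp3* and *Mmp10* had 3 counts or fewer in every mono-PSC library. Set against 3 counts per library, *Mmp3* was at least 152-fold higher in 3W-PSCs, and *Mmp10* at least 41.1-fold. *Mmp13*, with 0, 4, 1 and 1 counts in mono-PSCs, had 142 to 873 counts in 3W-PSCs (adjusted p = 4.84e-07 in edgeR). *Ccl2* had a log2 fold change of 5.46 (adjusted p = 2.97e-10).
With PCCs alone added, 3 of 16 AP-1 target genes were called between 2W-PSCs and mono-PSCs, against 0.991% of all genes, with a median of 0.28. *Spp1*, which encodes osteopontin, was higher (2.26, adjusted p = 0.00601 in edgeR), as was *Mmp3*, at least 11.7-fold, and the metallothionein gene *Mt2* was lower (-1.21, adjusted p = 0.0257). *Mmp3* passed the filter here only through its counts in 2W-PSCs, so its direction was set by the filter. The count was 5 without replicate 2 of 2W-PSCs. Most of these genes also answer other factors, and whether the AP-1 genes had a part in their change was not tested.
Of 30 other immediate early genes tested in 3W-PSCs against 2W-PSCs, 5 were called, each higher, against 10.7% of all genes (5.73% higher), with a median of 0.57. They were *Myc*, the growth regulator (1.67, adjusted p = 0.0360 in edgeR), *Phlda1* (1.38, adjusted p = 0.00812), *Klf10*, an early target of TGF-β (1.36, adjusted p = 0.0467), *Errfi1*, an inhibitor of the EGF receptor (1.20, adjusted p = 0.0469), and *Btg2*, which slows proliferation. The count was 1 without replicate 1, 2 or 3 of 3W-PSCs or replicate 1 or 4 of 2W-PSCs, 3 without replicate 4 of 3W-PSCs, and 8 and 9 without replicate 2 or 3 of 2W-PSCs. Against mono-PSCs 13 were higher and 2 lower, with a median of 0.49, where 13.4% of all genes were higher and 13% lower. *Myc* (2.34), *Klf10* (2.34), the matrix gene *Ctgf* (2.16) and *Errfi1* (2.07) had the largest rises, and *Klf4* (-1.66) and *Klf2* (-0.90), which encode Krüppel-like factors, were the genes that fell. In 2W-PSCs against mono-PSCs 0 of 30 were called in edgeR and in DESeq2, 5 had an unadjusted p under 0.05, and 2 were called without replicate 2 of 2W-PSCs.
The kinases and ternary complex factors that carry signals to these genes formed a further list. Of 29 tested, 2 were called in 3W-PSCs against 2W-PSCs, both higher, *Rps6ka3*, which encodes the kinase RSK2 (1.05, adjusted p = 0.0262 in edgeR), and *Mapkapk2*, a kinase under p38 (0.57, adjusted p = 0.0364). This is a smaller share than the 10.7% of all genes called, and so no result about the list. The count was 0 without any one of the 3W-PSC replicates or without replicate 4 of 2W-PSCs, 1 without replicate 1 or 3 of 2W-PSCs, and 6 without replicate 2. Against mono-PSCs 6 were called, again a smaller share than the 26.4% of all genes, although each was higher (13.4% of all genes). Among them were *Map2k6* (1.82), *Rps6ka3* (1.06), *Map2k1* (0.93) and *Elk3* (0.85), and the count was 10 without replicate 1 of mono-PSCs. Between 2W-PSCs and mono-PSCs 0 of 29 were called in edgeR and in DESeq2, and 1 had an unadjusted p under 0.05.
Among 18 MAPK phosphatases and feedback inhibitors, which are induced by the pathway that they restrain, 3 were higher and 1 lower in 3W-PSCs than in 2W-PSCs, against 5.73% and 4.95% of all genes. *Spred2* (1.88, adjusted p = 0.0496 in edgeR), *Dusp7* (1.0, adjusted p = 0.0301) and *Nab1*, a repressor of EGR1 (0.54, adjusted p = 0.0470), were higher, and *Dusp14* was lower (-0.95, adjusted p = 0.0386). The count of 4 was 0 without replicate 1, 2 or 4 of 3W-PSCs or replicate 4 of 2W-PSCs, 1 without replicate 3 of 3W-PSCs or replicate 1 of 2W-PSCs, 2 without replicate 3 of 2W-PSCs and 9 without replicate 2. Against mono-PSCs 6 were higher, led by *Dusp5* (2.13), *Spred3* (1.86), *Dusp6* (1.37) and *Dusp7* (0.77), and *Dusp14* was lower (-1.50), where 13.4% and 13% of all genes were called, and 4 were called without replicate 3 of mono-PSCs. *Dusp5*, a phosphatase of ERK in the nucleus, was the one gene called in 2W-PSCs against mono-PSCs (1.59, adjusted p = 0.0419, where 0.991% of all genes were called), and the count of 1 was 0 without replicate 1, 3 or 4 of 2W-PSCs or replicate 2, 3 or 4 of mono-PSCs.

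The genes whose pattern over the 12 libraries was most like that of each called gene were found by Pearson's r of log2 CPM, among 8690 other genes with a mean log2 CPM above 3. The libraries of the 3 cultures are pooled in r, which therefore mostly follows the differences between cultures, and genes picked as the highest of many have high values by selection. *Fosl1* was most like *Cd44* (r = 0.973), which is among the AP-1 targets, *Slc2a1* (0.968) and *Zfp36l1* (0.967). *Fosl2* was most like *Msh6* (0.980), *Etnk1* (0.971) and *Sod2* (0.966), and *Junb* like *Cd14* (0.985), *Tmtc3* (0.964) and *Rrm2* (0.962). *Maff* was most like *Fbxo32* (0.972), *Morc3* (0.951) and *Sppl2a* (0.926).
Among the genes that were lower in 3W-PSCs, *Fos* was most like *Pde2a* (0.939), *Cdon* (0.922) and *Mmp16* (0.911). *Jund* was most like *Sptbn1* (0.962), *Atf5* (0.959) and *Lamb2* (0.950), and *Atf3* like the Krüppel-like factor genes *Klf2* (0.942) and *Klf6* (0.893) and like *Rnd3* (0.885).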

How the data were processed

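RNA of sorted PSCs was measured in 12 libraries, 4 per culture. The authors made QuantSeq 3′ FWD libraries, sequenced single ends, ran FastQC, trimmed bases, mapped the reads to GRCm38 by STAR and assigned them to Ensembl genes by featureCounts. The deposited values are whole-number counts without normalisation, with totals of 4561817 to 8093368 per library. Molecular identifiers are not named in the methods, so PCR copies count as reads and depth bears on counting error only. No column was left out, and columns were matched to samples by the sample number that both carry.
From these counts, edgeR 4.0.16 under R 4.3.3 compared cultures in pairs on 8 libraries each (filterByExpr, TMM, glmQLFit and glmQLFTest, prior count 0.125), with Benjamini-Hochberg adjustment over all genes tested and a threshold of 0.05. Standard errors are the absolute log2 fold change over the square root of F. Alternatives were DESeq2 1.42.0, its size factors, omitting the filter, requiring 10 counts of each gene throughout, fitting all 12 libraries together, a prior count of 2, the replicate number as a block, and each library left out in turn. Tests were tried first on simulated counts.
The 10 genes and the lists beside them were chosen with earlier results of these data known. Of each list, the text names up to 4 called genes per direction and comparison with the largest change, and for each called gene of the 10 the 3 genes most like it over the libraries (log2 CPM with a prior count of 2). *Btg2*, the genes that overlap the 10, and the single marker genes were named after their values were seen. Positions are from GENCODE release M21 for mouse, on GRCm38. No gene of the 10 shared a 75-base window in the last 500 bases of its transcripts with another gene. Promoter windows are from a RefSeq table. The study's own fold changes were not used.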

Additional observations from a re-analysis of the deposited data

How the results depend on the processing

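Over the 10 genes and 3 comparisons, 421 of the values under alternatives kept their direction and their side of the threshold, 12 lost the call, 9 gained it and 8 changed sign. With one library left out, 2 to 5 of the 10 genes were called in 3W-PSCs against 2W-PSCs, 7 to 8 against mono-PSCs, and 0 in 2W-PSCs against mono-PSCs. Over all genes, those calls ranged from 497 (without replicate 2 of 3W-PSCs) to 2107 (without replicate 2 of 2W-PSCs) in 3W-PSCs against 2W-PSCs, with 1230 from all libraries. In 2W-PSCs against mono-PSCs they were 111 from all libraries, 64, 233 and 61 without replicate 1, 2 or 4 of 2W-PSCs, 63 and 61 without replicate 3 or 4 of mono-PSCs, and 57 to 277 over all alternatives. Without a filter, *Fosb* and *Egr1* were also called against mono-PSCs (adjusted p = 0.00997 and 0.0136), and a minimum of 10 counts called *Maff* against 2W-PSCs (0.0478, all edgeR). The signs that changed belonged to uncalled genes near 0 in log2 fold change. With one library left out, *Jun* ranged from -0.024 (without replicate 3 of 3W-PSCs) to 0.24 in 3W-PSCs against 2W-PSCs. In 2W-PSCs against mono-PSCs *Fos* ranged from -0.20 to 0.19, *Fosb* from -0.23 to 0.62, *Jund* from -0.44 to 0.059 and *Fosl1* from -0.050 to 0.47, and the cause was not tested.
Same-numbered libraries of different cultures correlated at -0.048 to 0.338 in their deviations from the culture means, over 0.1 in 5 of 12 pairs. The values were highest between mono-PSCs and 2W-PSCs (0.338, 0.259, 0.211 and 0.0990). For 4 of 12 libraries their own number correlated best in both other cultures at once. Over the 10 genes alone the correlations of same-numbered libraries ran from -0.0588 to 0.926. The labels name no shared source for a number, so the main tests do not pair the samples. If the numbers do mark pairs, those tests ignore them. With the replicate number as a block, 3, 0 and 8 of the 10 genes were called in 3W-PSCs against 2W-PSCs, 2W-PSCs against mono-PSCs and 3W-PSCs against mono-PSCs. *Fos* then had an adjusted p of 0.0661 against 2W-PSCs and a log2 fold change of 0.0043 in 2W-PSCs against mono-PSCs, and *Egr1* was called against mono-PSCs (adjusted p = 0.0231, edgeR). With 4 libraries per culture at these depths, genes without a call may still differ.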

Other observations

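A further list held other leucine zipper factors that pair with AP-1 proteins or share their sites. Of 17 tested in 3W-PSCs against mono-PSCs, 5 were called lower and 2 higher, against 13% and 13.4% of all genes, with a median log2 fold change of 0.21 over the list. *Ddit3*, which encodes CHOP, an effector of the integrated stress response (-1.27, adjusted p = 3.44e-05 in edgeR), *Maf* (-1.0, adjusted p = 0.000339), *Jdp2*, a repressor of AP-1 (-0.99, adjusted p = 0.00119), and *Atf4*, which acts above *Ddit3* and *Atf3* (-0.95, adjusted p = 0.000396), had the largest falls. *Bach2* (0.81, adjusted p = 0.0150) and *Nfe2l2*, which encodes NRF2, a partner of small Maf proteins (0.53, adjusted p = 0.0106), were higher. In 3W-PSCs against 2W-PSCs *Ddit3* alone was called (-1.08, adjusted p = 0.0258), a smaller share than the 10.7% of all genes, and the count was 0 without replicate 1, 2 or 4 of 3W-PSCs or replicate 4 of 2W-PSCs, 4 without replicate 2 of 2W-PSCs and 3 without replicate 3. In 2W-PSCs against mono-PSCs 0 of 17 were called in edgeR and in DESeq2, and 2 had an unadjusted p under 0.05.
Of 16 heat shock genes, a share of about that over all genes or less was called in each comparison with 3W-PSCs (10.7% and 26.4% of all genes), which is no result about the list. It was 1 gene in 3W-PSCs against 2W-PSCs, the endoplasmic reticulum chaperone gene *Hspa5* (-0.73, adjusted p = 0.0198 in edgeR), and 4 against mono-PSCs, each lower, led by *Cryab* (-1.76, adjusted p = 4.37e-06), where 13% of all genes were lower. The first count was 0 without any one of the 3W-PSC replicates or replicate 4 of 2W-PSCs, and 2 without replicate 2 of 2W-PSCs. The second was 1 without replicate 2 of 3W-PSCs or replicate 3 or 4 of mono-PSCs, 2 without replicate 1 or 4 of 3W-PSCs or replicate 2 of mono-PSCs, and 8 without replicate 1 of mono-PSCs. In 2W-PSCs against mono-PSCs edgeR called 0 (1 without replicate 2 or 3 of 2W-PSCs) and DESeq2 1, and 1 had an unadjusted p under 0.05. Summed over the list, mono-PSCs had 6617 to 9508 CPM, 2W-PSCs 7107 to 11434 CPM and 3W-PSCs 6173 to 7917 CPM.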
